A study of Brassica napus and Camelina sativa and Thlaspi arvense with 24 samples.

Results

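The genes described here are the expressed orthologs of *A. thaliana* AT1G01080, which encodes an RNA-binding protein of the chloroplast. They are 5 gene IDs of the 238537 IDs in the transcript sets of 3 species: BnaC05g000800.3DH and BnaA10g000840.3DH of *B. napus*, Csa17g001560 and Csa03g002160 of *C. sativa*, and CAH2039192 of pennycress. The deposited tables hold IDs without names, so the link to AT1G01080 rests on numbers. In each species these IDs, and no other set searched, gave the expression that the study summed for AT1G01080 in each of its libraries, with DH12075 for *B. napus*. The genes were thus chosen by their TPM in these libraries, which had to be above 0, and by no difference between tissues, lines or species. The levels below are given as a description, and the tests are of the differences. No sequence of the 5 genes was available here, and none is shown.

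RNA was sequenced from true leaves and fully expanded cotyledons of 4 lines, which gave 24 libraries with 3 biological replicates for each tissue of a line. The lines were N99 and DH12075 of *B. napus*, DH55 of *C. sativa* and a line of pennycress collected in the field, all seedlings with no treatment named, kept in a growth chamber for up to 2 weeks. N99 reads were quantified on the transcripts of DH12075, so an N99 transcript that differs in sequence could be listed at a lower value. The hour at which each tissue was collected is not given in the sources used here. Values are TPM, a length-corrected share of all transcripts of a library. They are scaled within each library, and the transcript sets of the species differ.

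Chloroplasts have their own small genome, but most of the proteins that process, edit, protect and translate its RNA are encoded in the nucleus and imported. Chloroplast RNA-binding proteins with RNA recognition motifs, the type to which AT1G01080 belongs, bind many chloroplast transcripts and are known in *A. thaliana* for their parts in RNA editing, RNA processing and the protection of transcripts from degradation. *B. napus* carries the chromosomes of an A and a C genome, and *C. sativa* is a hexaploid, so both can express several copies of a gene. For pennycress the study used reciprocal BLAST hits, and the pairing here searched 1 ID per gene. A further pennycress copy would thus not be seen.

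In true leaves the *B. napus* copies had the highest TPM, the pennycress gene came next and the *C. sativa* copies were lowest. By the share of genes above them, the *C. sativa* copies instead stood higher than the pennycress gene. That share rests on 39646 to 40208 genes at 1 TPM or more in DH55 leaves, but on 14357 to 14627 in pennycress leaves. The shares are thus not on the same footing between these species. The C05 copy (BnaC05g000800.3DH) had 85.9, 98.6 and 98.3 TPM in the leaf libraries of DH12075, where only 3.46% to 4.04% of the genes at 1 TPM or more were higher. The A10 copy (BnaA10g000840.3DH) had 67.1, 75.7 and 67.5 TPM in the same libraries. In N99 leaves the C05 copy had 67.6, 74.8 and 66.8 TPM and the A10 copy had 61.6, 71.4 and 56.4 TPM, so both copies were abundant in both lines. The *C. sativa* copies were lower, with 17.3, 19.1 and 20.5 TPM for Csa17g001560 and 15.5, 17.9 and 19.1 TPM for Csa03g002160 in leaves of DH55, with 14.8% to 19.8% of genes above them. The pennycress gene, CAH2039192, had 42.4, 39.4 and 46.1 TPM in leaves, with 22.5% to 26.2% of genes above it.

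In cotyledons the copies of the polyploids were all lower than in leaves. The C05 copy had 62.8, 62.7 and 47.6 TPM in DH12075 cotyledons, and the A10 copy had 43.5, 43.8 and 32.8 TPM. In N99 cotyledons the C05 copy had 48.6, 23.1 and 25.8 TPM and the A10 copy had 44.8, 20.2 and 22.8 TPM. Replicate 1 of the N99 cotyledons stood well above replicates 2 and 3 for both copies, which gave these groups the widest spread of any AT1G01080 level (43.2% of the mean for the C05 copy and 46.1% for the A10 copy). TPM are shares of a library, and 10 genes took 37.1% of replicate 2. By rank, 6.09%, 9.68% and 11.8% of the genes at 1 TPM or more were above the C05 copy in replicates 1, 2 and 3. Csa17g001560 had 13.2, 8.47 and 6.73 TPM and Csa03g002160 had 13.7, 9.65 and 9.32 TPM in DH55 cotyledons. CAH2039192 had 47.2, 38.4 and 40.7 TPM in pennycress cotyledons, in the same range as in leaves.

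**Figure D1:**
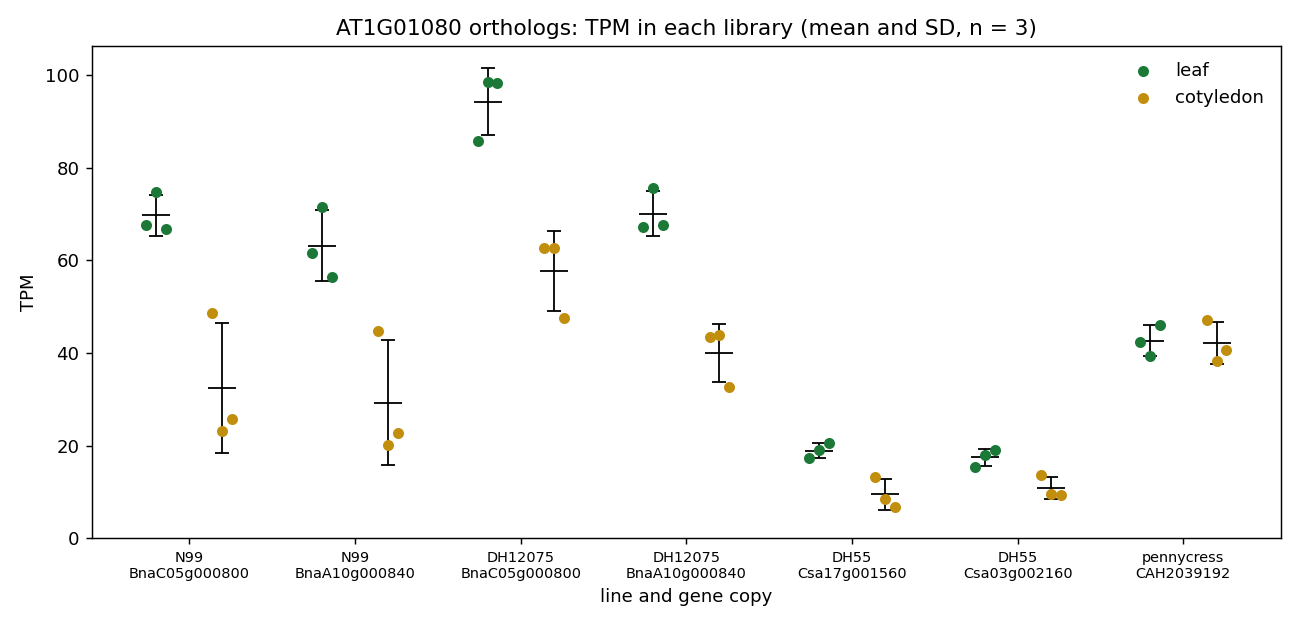
TPM of each AT1G01080 ortholog (vertical axis) in each library, by line and copy (horizontal axis), with leaf left of cotyledon. Points are libraries, and black marks are the mean and SD of 3 libraries. Leaf lay above cotyledon without overlap for both copies in N99, DH12075 and DH55, while the pennycress libraries of both tissues shared one range.

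Ordered by the mean of 3 libraries, the 14 levels ran from the C05 copy in DH12075 leaves (94.2 ± 7.27 TPM, SD, n = 3) to Csa17g001560 in DH55 cotyledons (9.47 ± 3.35 TPM). The C05 copy in DH12075 leaves was set apart from the next level, the A10 copy in DH12075 leaves (70.1 ± 4.81 TPM), with no overlap of libraries. That level, the C05 copy in N99 leaves (69.7 ± 4.41 TPM), the A10 copy in N99 leaves (63.1 ± 7.65 TPM) and the C05 copy in DH12075 cotyledons (57.7 ± 8.73 TPM) overlapped from neighbour to neighbour, and the last of these did not overlap the pennycress leaves that followed. The levels from pennycress leaves (42.6 ± 3.35 TPM) down through pennycress cotyledons, the A10 copy in DH12075 cotyledons (40.04 ± 6.30 TPM) and the N99 cotyledons to the *C. sativa* leaves likewise overlapped from neighbour to neighbour. The *C. sativa* leaves (19.0 ± 1.61 and 17.5 ± 1.83 TPM) did not overlap the *C. sativa* cotyledons.

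Across the series, the values of every library sum to 1000000, so the depth of the libraries is unknown, and only the spread between replicates measures precision. The 10 most abundant genes took 37.1% of N99 cotyledon replicate 2 and 7.58% to 13.5% of every other library. All markers of the photosynthetic apparatus that could be paired (2 of 8 genes for *B. napus*, 6 for *C. sativa* and 7 for pennycress) were expressed in both tissues. Their summed level was 6367 to 7000 TPM in leaves and 3253 to 6717 TPM in cotyledons of N99, 7204 to 7701 TPM and 5652 to 6596 TPM in DH12075, 19266 to 20441 TPM and 13331 to 14738 TPM in DH55, and 10728 to 17226 TPM and 4852 to 5287 TPM in pennycress. In leaf tissue as a whole, fewer cells that express a gene and less RNA per cell cannot be told apart.

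The first comparison asked whether the genes differ between the true leaf that grows after germination and the seed-derived cotyledon. Both copies rose in leaves of all polyploid lines, by 1.604 to 2.16 times in the ratio of means, and the pennycress gene did not pass the test. In DH12075 leaf was above cotyledon by 0.71 (SE 0.14, adjusted p = 0.00465) for the C05 copy and by 0.80 (SE 0.14, adjusted p = 0.00277) for the A10 copy, on the log2(TPM + 1) scale of limma with Benjamini-Hochberg adjustment over all genes tested. Both copies thus passed, in a comparison in which 20.8% of all genes tested in DH12075 were called higher in leaf and 24.7% were higher without overlap of the libraries. In N99 the difference was 1.15 (SE 0.32, limma adjusted p = 0.00912) for the C05 copy and 1.16 (SE 0.32, adjusted p = 0.00948) for the A10 copy. There, 17.2% of all genes were called higher and 25.7% were higher without overlap. Leaving out cotyledon replicate 2 of N99, the library dominated by 10 genes, gave 0.96 (adjusted p = 0.0532) and 0.95 (adjusted p = 0.0637) in limma. Leaving out cotyledon replicate 3 gave 1.03 (adjusted p = 0.0501) and 1.04 (adjusted p = 0.0529), so the N99 calls rested on these libraries. With each N99 library left out in turn, the size ran from 0.96 to 1.48 for the C05 copy and from 0.95 to 1.51 for the A10 copy.

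In *C. sativa* the leaf level of Csa17g001560 was 2.001 times and that of Csa03g002160 was 1.604 times the cotyledon level. On the log2 scale the differences were 0.97 (SE 0.22, limma adjusted p = 0.0162) and 0.65 (SE 0.16, adjusted p = 0.0223). Both genes rose in a line where 7.97% of genes were called higher and 29.5% lower in leaf. There, 11.9% were higher without overlap, and the median of all genes was -0.19. With quantile normalization, 13.9% of genes were called higher and 13.5% lower, and the median was 0.01. The calls of both copies were near the threshold. Csa17g001560 lost its call without cotyledon replicate 2 (adjusted p = 0.0532) or leaf replicate 2 (adjusted p = 0.0504), and Csa03g002160 lost it without cotyledon replicate 2 or 3 (adjusted p = 0.0728 and 0.0672) or leaf replicate 2 or 3 (adjusted p = 0.0672 and 0.0592), all in limma.

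CAH2039192 averaged 42.6 ± 3.35 TPM in leaves and 42.1 ± 4.56 TPM in cotyledons (SD, n = 3 each), a ratio of 1.01. The log2 difference was 0.02 (SE 0.12, limma adjusted p = 0.909), where 15.6% of all pennycress genes were called higher in leaf and 22.2% were higher without overlap. All 7 photosynthesis markers that could be paired in pennycress rose in leaf, with a median of 1.64 on the log2 scale, against 15 of 17 marker IDs in DH55 (median 0.52), 5 of 8 in DH12075 (median 0.30) and 2 of 8 in N99 (median 0.53). The pennycress gene was thus level in a line whose markers all rose, although the markers paired differ between the lines. The part of leaf composition in the AT1G01080 values was not tested.

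**Figure D2:**
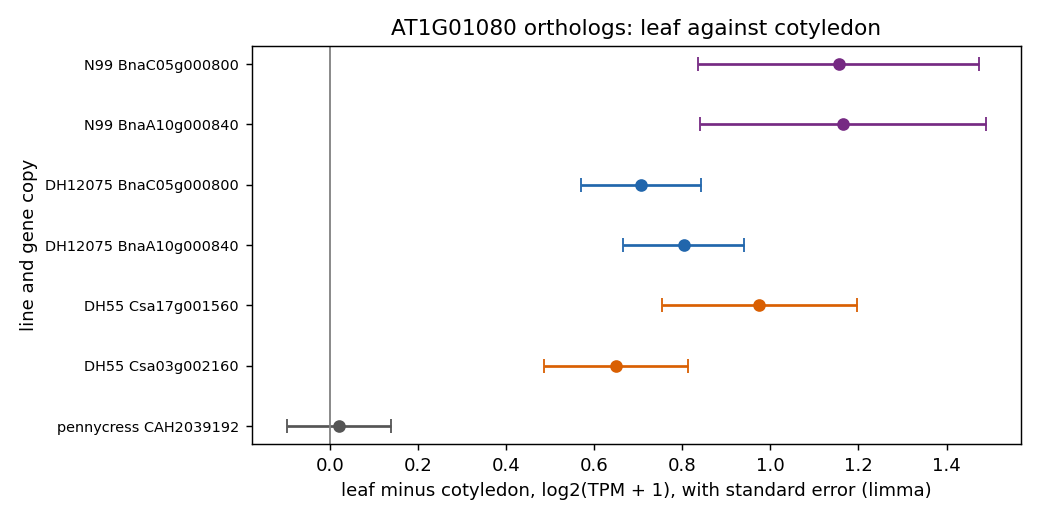
Leaf minus cotyledon difference of each AT1G01080 ortholog on the log2(TPM + 1) scale (horizontal axis), by line and copy (vertical axis). Points are limma estimates over 6 libraries and bars are standard errors. The 6 values of the *B. napus* and *C. sativa* copies lie between 0.65 and 1.16, and the pennycress value is 0.02.

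The difference of the leaf effect between species was tested on the summed copies, over the 776 *A. thaliana* genes paired in all 3 species, with DH12075 for *B. napus*. The copies summed to 164 ± 10.7 TPM in leaves and 97.7 ± 15.0 TPM in cotyledons of DH12075, and to 36.4 ± 3.43 TPM and 20.4 ± 5.77 TPM in DH55 (SD, n = 3 each). The leaf effect was larger in *B. napus* than in pennycress by 0.73 (SE 0.23, limma adjusted p = 0.0167) and larger in *C. sativa* than in pennycress by 0.82 (SE 0.23, adjusted p = 0.0134). A larger effect was called in 20.5% of genes for *B. napus* against pennycress and a smaller one in 25.3%. For *C. sativa* against pennycress these shares were 7.99% and 21.1%. With quantile normalization they were 25.8% and 20.4% for *B. napus* and 14.3% and 13.9% for *C. sativa*. Between *B. napus* and *C. sativa* the leaf effect differed by -0.08 (SE 0.23, limma adjusted p = 0.806, 37% of genes called), an estimate whose standard error allows a modest difference in either direction. With quantile normalization the *B. napus* against pennycress difference was 0.53 (adjusted p = 0.0586), and with N99 in place of DH12075 in the same fit the *C. sativa* against pennycress difference of 0.82 had an adjusted p of 0.0936, both in limma.

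Over both tissues the AT1G01080 sum differed between the species (F = 51.1, limma adjusted p = 9.17e-08), as did 92.7% of the genes compared. The sum in *B. napus* DH12075 was 4.51 times that of *C. sativa* in leaves and 4.799 times in cotyledons. It was 3.86 times that of pennycress in leaves but 2.32 times in cotyledons. On the log2 scale *B. napus* was above *C. sativa* by 2.19 (SE 0.22, adjusted p = 9.45e-08) and above pennycress by 1.56 (SE 0.22, adjusted p = 3.39e-06) in limma. The difference from pennycress was 0.78 (limma adjusted p = 0.00537) with the most expressed copy taken instead of the sum and 2.46 (adjusted p = 1.71e-08) with quantile normalization. A higher level in *B. napus* was called for 26% of genes against *C. sativa* and for 21.8% against pennycress, and the medians of all genes were -0.17 and -0.84 with TPM as deposited and 0.12 and 0.02 with quantile normalization. With quantile normalization, higher and lower calls made up 36.6% and 32.0% of genes against *C. sativa*, where they were 26% and 40.7% with TPM as deposited, and 37.8% and 37.0% against pennycress, where they were 21.8% and 59.7%.

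The sum in *C. sativa* was 0.855 times the pennycress level in leaves and 0.484 times in cotyledons, with a log2 difference of -0.63 (SE 0.22, limma adjusted p = 0.0149). That was close to the median of all genes compared (-0.62), and 55% of genes were called lower. Rescaled over the genes compared, the difference was -0.05 (limma adjusted p = 0.851), and with quantile normalization it was 0.18 (adjusted p = 0.483), so under these scalings the sums of *C. sativa* and pennycress did not differ past the threshold. With the most expressed copy instead of the sum it was -1.61 (limma adjusted p = 5.06e-06).

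*C. sativa* has 3 subgenomes, and the 2 IDs paired with AT1G01080 are on Csa17 and Csa03. On Csa14, the ID Csa14g002100 lies between IDs that were paired with AT1G01090 and AT1G01060, the genes around AT1G01080 in *A. thaliana* number order. It had 20.7, 21.0 and 21.9 TPM in leaves and 17.7, 13.5 and 10.03 TPM in cotyledons of DH55, in leaves above every value of the Csa17 and Csa03 copies, and it rose in leaf by 0.62 (SE 0.19, limma adjusted p = 0.0403). No source used here links it to AT1G01080, and the study's sum was met without it, so it is not counted as a copy. Adding it, a step taken only after its values were known, raised the *C. sativa* sum to 57.6 ± 3.997 TPM in leaves and 34.1 ± 9.49 TPM in cotyledons and put the *C. sativa* minus pennycress difference at 0.05 (limma adjusted p = 0.836). *B. napus* DH12075 was still 2.85 times that larger sum in leaves and 2.87 times in cotyledons.

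The second comparison was between the *B. napus* genotypes. The C05 copy fell in N99 relative to DH12075, by 0.65 on the log2 scale with tissue as a covariate (SE 0.18, limma adjusted p = 0.00774, 29.2% of all genes called lower and 24.6% called higher). It averaged 69.7 ± 4.41 TPM in N99 leaves, against 94.2 ± 7.27 TPM in DH12075 leaves (SD, n = 3 each), a ratio of 0.740 with no overlap. The difference in leaves alone was -0.43 (SE 0.12, limma adjusted p = 0.0207), and 28.2% of genes were lower in N99 leaves without overlap. In cotyledons it averaged 32.5 ± 14.0 TPM in N99 and 57.7 ± 8.73 TPM in DH12075, a ratio of 0.563 with overlapping libraries, and the difference was -0.88 (SE 0.30, limma adjusted p = 0.0301).

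The A10 copy did not pass the same test, with N99 minus DH12075 at -0.33 (SE 0.19, limma adjusted p = 0.147). Its ratio of N99 to DH12075 means was 0.901 in leaves and 0.731 in cotyledons, and the libraries of the lines overlapped in both tissues. Without N99 cotyledon replicate 1, the high library of that group, the A10 difference was -0.47 (limma adjusted p = 0.0293). The A10 call thus turned on that library. The group then rested on replicate 3 and on replicate 2, of which 10 genes took 37.1%. With each library left out in turn, the A10 difference ran from -0.47 to -0.22 (limma adjusted p of 0.0293 to 0.278). The interaction of line and tissue, which tests whether the lines differ by another amount in each tissue, was 0.45 (SE 0.35, limma adjusted p = 0.459) for the C05 copy and 0.36 (SE 0.36, adjusted p = 0.583) for the A10 copy, where 10.6% of all genes passed. Without N99 cotyledon replicate 1, and with replicate 2 still in the group, the C05 interaction was 0.77 (limma adjusted p = 0.0455).

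The plain ratio of the TPM of the copies within a library is free of the scaling of the library. The log2 ratios tested have 1 TPM added to each copy, which draws them toward 0 where TPM are low. The C05 copy exceeded the A10 copy in 6 of 6 libraries of each *B. napus* line. How many other copy pairs had the same copy higher in all 6 libraries was not counted, so this is not read as particular to AT1G01080. In N99 the ratios were 1.097, 1.05 and 1.19 in leaves and 1.09, 1.14 and 1.13 in cotyledons, and in DH12075 they were 1.28, 1.303 and 1.46 in leaves and 1.44, 1.43 and 1.45 in cotyledons. Every N99 library lay below every DH12075 library. The C05 copy thus supplied 52.7% ± 1.08 of the AT1G01080 transcripts in N99 and 58.2% ± 1.44 in DH12075 (SD, n = 6 each). The log2 ratio averaged 0.15 (SD 0.06) in N99 and 0.47 (SD 0.08) in DH12075, each above 0 with p = 0.03125 in a two-sided exact sign-flip test, the smallest p that 6 libraries allow.

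The N99 minus DH12075 difference of the log2 ratio was -0.32 (two-sided exact permutation of lines within tissue, p = 0.005, the smallest this design allows). It was -0.27 in leaves alone and -0.36 in cotyledons alone, where the exact permutation p cannot go below 0.1 and was 0.1 in each. Among 362 genes with a pair of copies in *B. napus*, 22.7% had ratios that did not overlap between the lines, so a shift of this kind was common. Since N99 was read on DH12075 transcripts, a sequence difference in the N99 C05 copy and a lower level of its RNA cannot be told apart here.

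**Figure D3:**
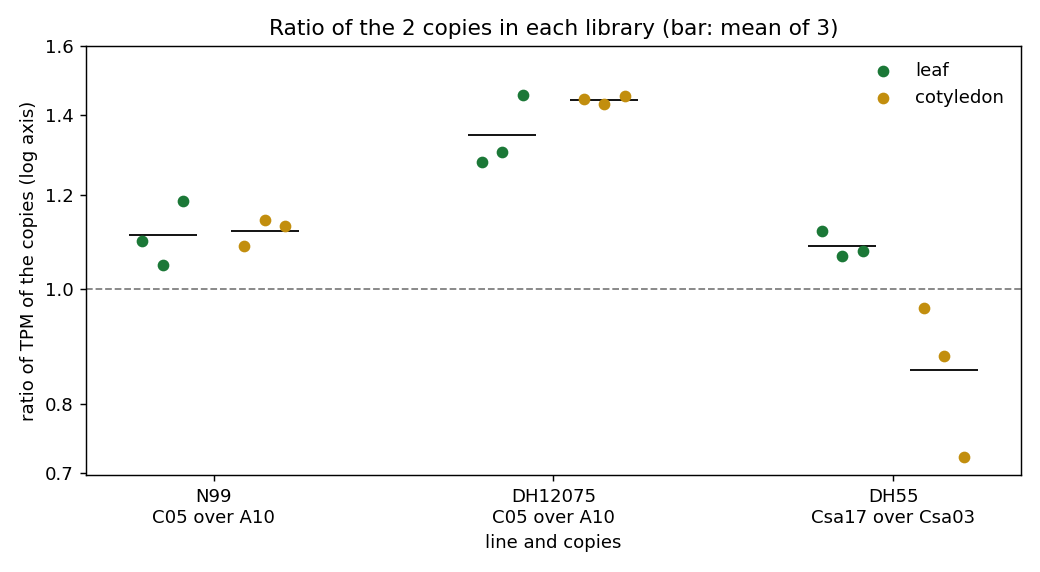
Ratio of the TPM of the copies in each library (vertical log axis) for N99, DH12075 and DH55 (horizontal axis), with leaf left of cotyledon. Points are libraries, bars are means of 3 ratios, and the dashed line marks equal levels. N99 ratios lie between 1.05 and 1.19, below all DH12075 ratios (1.28 to 1.46), and the DH55 ratio is above 1 in leaves and below 1 in cotyledons.

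In *C. sativa* the higher copy differed between the tissues. Csa17g001560 over Csa03g002160 was 1.12, 1.07 and 1.08 in leaves, and 0.964, 0.878 and 0.722 in cotyledons. Csa17g001560 was the higher copy in 3 of 3 leaf libraries and Csa03g002160 in 3 of 3 cotyledon libraries, which left no mean difference over both tissues (log2 ratio -0.05, SD 0.21, two-sided exact sign-flip p = 0.6875, n = 6). Leaf minus cotyledon of the log2 ratio was 0.32 (SE 0.11, two-sided exact permutation p = 0.1, the smallest that 3 against 3 allow, and 0.3 adjusted over the 3 lines compared). This contrast was chosen after the data were seen. Of 191 genes with a pair of copies in *C. sativa*, 27.7% had ratios that did not overlap between the tissues, and in 2.62% the higher copy changed between all leaf and all cotyledon libraries. The ratio depended less on tissue in *B. napus*, by the values alone, with leaf minus cotyledon at -0.01 (SE 0.06, exact permutation p = 1) in N99 and -0.10 (SE 0.06, exact permutation p = 0.4) in DH12075.

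Within a line the copies followed each other from library to library. Pearson's r between the copies on the log2(TPM + 1) scale was 0.997 in N99, 0.989 in DH12075 and 0.987 in DH55. Each r is over 6 libraries that include both tissues and share their scaling, and is given as a description. TPM do not show how reads that match both copies were divided between them. The part of such reads in r and in the copy ratios above was not tested.

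The chromosome around the *B. napus* copies gives the line difference its setting. Of the 10 IDs on each side of the C05 copy, 15 were tested, of which 8 were higher in N99, 2 were lower and 5 did not pass, with a median of 0.37 on the log2 scale. Around the A10 copy 13 were tested, of which 5 were higher, 5 were lower and 3 did not pass, with a median of 0.28. Of all genes tested 24.6% were higher and 29.2% lower in N99, with a median of -0.04. The ID next to it, BnaC05g000790.3DH (paired with AT1G01090, a subunit of chloroplast pyruvate dehydrogenase), rose by 0.80 (SE 0.19, limma adjusted p = 0.00308) in N99, while its A10 counterpart BnaA10g000830.3DH fell by 0.71 (SE 0.16, limma adjusted p = 0.00196).

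**Figure D4:**
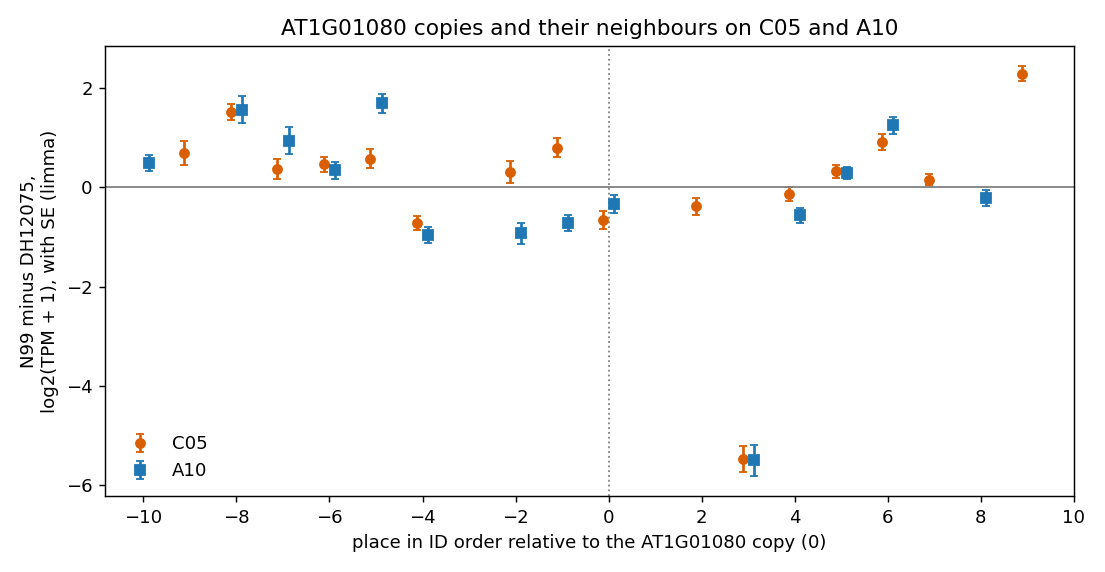
N99 minus DH12075 difference on the log2(TPM + 1) scale with standard errors (vertical axis) for the AT1G01080 copy (place 0) and the tested IDs among the 10 on each side in ID order (horizontal axis), on chromosomes C05 and A10. The copies at place 0 are at -0.65 on C05 and -0.33 on A10, and the ID at place 3 is at -5.48 on C05 and -5.50 on A10.

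The largest line difference in this neighbourhood was 3 IDs away from each copy. BnaC05g000830.3DH was paired with AT1G01060, LHY, a clock gene whose transcript peaks around dawn in *A. thaliana*. It had 1.15 ± 0.628 TPM in leaves and 8.65 ± 4.43 TPM in cotyledons of N99, against 142 ± 5.77 TPM and 261 ± 15.8 TPM in DH12075 (SD, n = 3 each). The line difference was -5.48 (SE 0.26, limma adjusted p = 9.00e-10). BnaA10g000870.3DH, at the same place on A10 but not paired with an *A. thaliana* gene, differed by -5.50 (SE 0.31, limma adjusted p = 4.42e-09).

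LHY also moved with tissue, in the direction opposite to AT1G01080. It fell in leaf by 0.87 in DH12075 (SE 0.09, limma adjusted p = 0.000328), by 2.12 in N99 (SE 0.29, adjusted p = 1.85e-05), and in *C. sativa* Csa17g001540 fell by 1.298 (adjusted p = 0.00230) and Csa14g002120 fell by 1.32 (adjusted p = 0.00305). In pennycress, where AT1G01080 was level, the LHY ortholog CAH2039186 had 85.5 ± 14.5 TPM in leaves and 82.6 ± 30.2 TPM in cotyledons, a difference of 0.09 (SE 0.26, limma adjusted p = 0.802). Between the lines, LHY and the C05 copy of AT1G01080 were lower in N99, while the A10 copy did not pass. The time of collection is not given in the sources used here, and its part in the tissue and line differences of AT1G01080 was not tested.

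**Figure D5:**
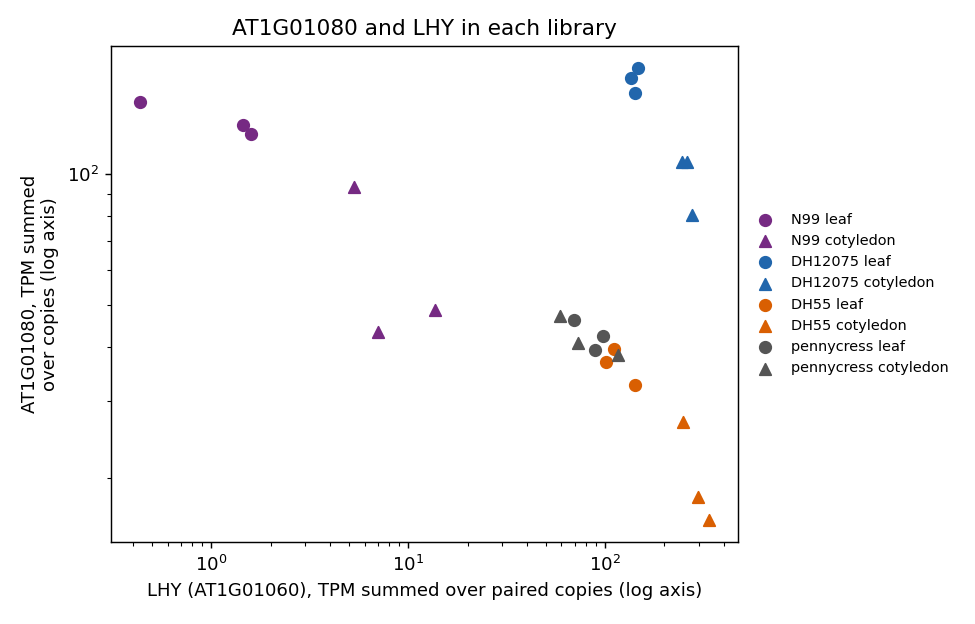
AT1G01080 TPM summed over copies (vertical log axis) against LHY TPM summed over paired copies (horizontal log axis) in each of 24 libraries, with circles for leaf and triangles for cotyledon. For *B. napus* the LHY value is BnaC05g000830.3DH alone, without the unpaired BnaA10g000870.3DH, and for *C. sativa* it sums Csa17g001540 and Csa14g002120. Horizontal positions are thus not on the same footing between species. N99 libraries lie far to the left, at 0.432 to 13.7 TPM of LHY, and leaves lie above and to the left of cotyledons in N99, DH12075 and DH55, but not in pennycress.

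Among other nucleus-encoded genes of chloroplast gene expression, a list of 15 on the first part of *A. thaliana* chromosome 1, 7 could be paired for *B. napus*, 8 for *C. sativa* and 9 for pennycress. No tested ID of this list was called lower in leaf in any line, although some estimates in DH55 and pennycress were negative. Of those tested, 10 of 14 rose in DH12075 (median 0.57), 7 of 14 in N99 (0.72), 8 of 19 in DH55 (0.29) and 3 of 9 in pennycress (0.04), where the medians of all genes were -0.08, 0.04, -0.19 and -0.10. The rises are read beside the shares of all genes higher in leaf given above. For lower calls, the share of all genes was 29.5% for DH55 and DH12075 alike, 20.6% for pennycress and 12.2% for N99.

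RPL4, a protein of the chloroplast ribosome, rose in leaf in every line and copy, by 2.36 and 1.84 in N99, 2.19 and 1.63 in DH12075, 0.66 to 0.86 in the 3 copies of DH55 and 0.89 in pennycress (limma adjusted p of 0.0263 or less). SDP, a chloroplast RNA-binding protein, also rose in every copy, from 0.44 for Csa14g015770 in DH55 (adjusted p = 0.0185) to 1.01 for BnaC05g011070.3DH in N99 (adjusted p = 0.0155), and it rose by 0.75 in pennycress (adjusted p = 0.0435) in limma. These genes, unlike AT1G01080, were called in pennycress as well. RHON1, which binds chloroplast transcripts and takes part in ending their transcription, rose in *B. napus* by 1.105 and 2.08 in N99 and by 1.33 and 1.99 in DH12075 (limma adjusted p of 0.00281 or less). In DH55 its copies were at 0.25 to 0.53 and in pennycress at -0.21, none past the threshold. RHON1 and AT1G01080 thus both passed in *B. napus* and not in pennycress.

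EMB3103, a pentatricopeptide repeat protein, rose in all 3 DH55 copies (0.32 to 0.44, limma adjusted p of 0.0295 or less), in both DH12075 copies (0.90 and 0.58, adjusted p of 0.00920 or less) and in the A06 copy of N99 (1.13, adjusted p = 0.000475). It was at 0.48 for the C05 copy of N99 (limma adjusted p = 0.104) and at 0.04 in pennycress (adjusted p = 0.774), neither past the threshold. FUG1, a chloroplast translation initiation factor, rose in 1 of 4 DH12075 copies (0.51, limma adjusted p = 0.00514) and in pennycress (0.40, adjusted p = 0.0277), and in no copy of N99 or DH55. CAF2, a chloroplast splicing factor, rose only for BnaC05g024440.3DH in DH12075 (0.40, limma adjusted p = 0.0127). SIG2, a chloroplast transcription factor, and PTAC6, part of a chloroplast RNA polymerase complex, did not pass where paired, with SIG2 at 0.17 to 0.29 in DH55 and 0.37 in pennycress and PTAC6 at -0.09 in pennycress. The editing factor CLB19 was below 1 TPM on average in both *B. napus* lines and in 2 of 3 DH55 copies, and did not pass for Csa14g007120 in DH55 or in pennycress.

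Between N99 and DH12075, 1 of the 14 list IDs tested was higher and 3 were lower, with a median of -0.25, where 24.6% of all genes were higher, 29.2% were lower and the median was -0.04. Those lower in N99 were the A06 copy of SDP (-0.96, limma adjusted p = 5.94e-05) and the A06 and C05 copies of FUG1 (-0.97 and -0.88, adjusted p = 1.78e-05 and 5.56e-05). The A09 copy of CAF2 was higher (0.88, limma adjusted p = 6.72e-05). As with AT1G01080, copies of one gene differed in their calls. The C05 copy of SDP was at 0.12 (limma adjusted p = 0.481) and that of CAF2 at -0.23 (adjusted p = 0.126), and these differences between copies were not tested.

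The genes most like AT1G01080 in their summed level were ranked among 592 genes averaging 1 TPM or more in every line. Over 24 libraries, which differ mostly by species, the highest Pearson's r were those of AT1G15700 (ATPC2, a gamma subunit of chloroplast ATP synthase, r = 0.926), AT1G20430 (0.899), AT1G22310 (MBD8, a methyl-CpG-binding domain protein, 0.858), AT1G08980 (AMI1, an amidase, 0.848) and AT1G12900 (GAPA2, chloroplast glyceraldehyde-3-phosphate dehydrogenase, 0.844). AT1G15700 averaged 7.25 TPM in N99, 8.39 TPM in DH12075, 2.11 TPM in DH55 and 3.78 TPM in pennycress, the same order of species as AT1G01080 at a lower level.

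After the mean of each line was subtracted, which leaves the differences between and within tissues, the closest genes were AT1G23360 (MENG, a methyltransferase of phylloquinone synthesis in the chloroplast, r = 0.958), AT1G14810 (an aspartate-semialdehyde dehydrogenase, 0.925), AT1G04420 (an oxidoreductase, 0.921), AT1G02280 (TOC33, a receptor for protein import into the chloroplast, 0.907) and AT1G21440 (0.894). No gene was in both sets. The libraries share their scaling within each library, and these correlations are a description over 24 libraries.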

How the data were processed

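The 24 RNA libraries, 3 for each tissue of the 4 lines, were assigned from the sample labels. The authors used Trimmomatic 0.32 for trimming, quantified reads with Salmon 1.10.0 against one transcriptome per species and summarised them per gene with tximport, and they deposited TPM without log transformation, filter or pooling. TPM hold no read numbers, so the authors' count test was not run and no counting interval is given. Each ID was linked to an *A. thaliana* gene where sums of TPM met the study's summed expression exactly, which for AT1G01080 gave 2 *B. napus* IDs, 2 *C. sativa* IDs and 1 pennycress ID. Many other genes were not linked. The orthologs, the lists and the tests were chosen with earlier results of these data known.

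Tests across genes used limma 3.58.1 (R 4.3.3) on log2(TPM + 1), by lmFit and then eBayes with a variance trend, for genes averaging 1 TPM or more, with p adjusted by Benjamini-Hochberg and called under 0.05. Fold changes on this scale understate those of low genes. Copy ratios, log2 of (TPM + 1) over (TPM + 1), had exact sign-flip and permutation tests (scipy 1.17.1, numpy 2.4.6, pandas 2.3.3, with plots by matplotlib 3.10.9). The scripts were tested on simulated data. Genes named are the 5 orthologs, the paired genes of the chloroplast list, and the 5 most correlated genes each way, with neighbours where a result turned on them. The alternatives were a pseudocount of 0.1, no filter, quantile normalization, rescaling without the 10 most abundant genes or over the genes compared, single tissues, the most expressed copy alone, N99 as the *B. napus* line, tissue as a covariate, a replicate block and each replicate left out.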

Additional observations from a re-analysis of the deposited data

Results flagged for a closer look

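The leaf against cotyledon effect of the summed AT1G01080 copies differed between species in a test of the difference itself. It was larger in *B. napus* than in pennycress by 0.73 on the log2(TPM + 1) scale (SE 0.23, limma adjusted p = 0.0167) and larger in *C. sativa* than in pennycress by 0.82 (SE 0.23, limma adjusted p = 0.0134). A larger effect was called in 20.5% and 7.99% of the genes compared and a smaller one in 25.3% and 21.1%. With quantile normalization a larger effect was called in 25.8% and 14.3%, and a smaller one in 20.4% and 13.9%. The AT1G01080 call against pennycress was lost for *B. napus* with quantile normalization (limma adjusted p = 0.0586). For *C. sativa* it was lost with N99 in place of DH12075 (limma adjusted p = 0.0936). The log2 ratio of the C05 to the A10 copy also differed between the *B. napus* lines, by -0.32 for N99 minus DH12075, lower in each of the 6 N99 libraries than in any of the 6 DH12075 libraries (exact permutation within tissue, p = 0.005, the smallest this design allows). Among 362 genes with a pair of copies in *B. napus*, 22.7% had ratios that did not overlap between the lines.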

How the results depend on the processing

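The 22 results were recomputed under 381 alternatives, 246 of which left out 1 library each, and 354 of them kept the direction and the side of the threshold. The read depth is unknown, each group has 3 libraries, and N99 has no transcript set of its own, which limits all values of single copies. Without a filter on low values the leaf effect of the A10 copy in N99 lost its call (1.16, limma adjusted p = 0.0544). Whether the replicate numbers pair the samples is not given in the sources used here. Correlations of deviations were -0.37 to 0.19 between same-numbered libraries and -0.36 to 0.46 between others, which cannot decide it. The main fits have no replicate block. With the replicate block the leaf effect of Csa03g002160 was 0.65 (limma adjusted p = 0.0604), and the block changed no other call.

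With quantile normalization the *C. sativa* minus pennycress difference of the sum was 0.18 (limma adjusted p = 0.483) and the *B. napus* minus pennycress difference of the leaf effect was 0.53 (adjusted p = 0.0586). Rescaled over the genes compared, *C. sativa* minus pennycress was -0.0537 (adjusted p = 0.851), and with Csa14g002100 added, an alternative chosen after seeing the data, it was 0.0512 (adjusted p = 0.836). With N99 in place of DH12075, it was -0.63 (adjusted p = 0.0541), the leaf effect differences were 0.34 for *B. napus* minus *C. sativa* (adjusted p = 0.440) and 0.82 for *C. sativa* minus pennycress (adjusted p = 0.0936). The log2 ratio of Csa17g001560 to Csa03g002160 was 0.11 in leaf alone. The causes of these changes were not tested. In DH55, 13.9% of genes were higher and 13.5% lower in leaf with quantile normalization, against 7.97% and 29.5% as deposited. In N99, 18.2% were higher and 21.1% lower without the 10 most abundant genes, against 17.2% and 12.2%. The interaction of line and tissue was positive in 8.27% and negative in 6.95% of genes with quantile normalization, against 7.69% and 2.95%.

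Leaving out each library in turn gave 0.96 to 1.48 for the leaf effect of the C05 copy and 0.95 to 1.51 for that of the A10 copy in N99, 0.78 to 1.22 for Csa17g001560, 0.56 to 0.81 for Csa03g002160 and -0.0428 to 0.103 in pennycress. It gave -0.47 to -0.22 for N99 minus DH12075 of the A10 copy, 0.25 to 0.77 for the C05 interaction, -0.294 to 0.0618 for the *B. napus* minus *C. sativa* leaf effect (0.0618 without DH55 cotyledon replicate 3) and -0.0894 to 0.0243 for the log2 ratio of the *C. sativa* copies (0.0243 without the same library).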
